A study of Homo sapiens with 16 samples.

Results

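Oxidative phosphorylation is carried out by complexes of the inner mitochondrial membrane. Complex I (NADH dehydrogenase), complex II (succinate dehydrogenase), complex III (the cytochrome bc1 complex) and complex IV (cytochrome c oxidase) pass electrons to oxygen, all but complex II pump protons, and complex V (ATP synthase) uses the proton gradient to make ATP. Most subunits are encoded in the nucleus, translated in the cytoplasm and imported, and they assemble with a small set of subunits encoded by mitochondrial DNA. The level of their cytoplasmic mRNAs is what was measured here, in a human osteosarcoma line, U2OS, with a stably expressed tetracycline repressor (U2OS-TR).

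The nuclear-encoded subunits were chosen by gene symbol, as protein-coding genes of the NDUFA, NDUFB, NDUFC, NDUFS and NDUFV, SDH, UQCR, CYC1, COX4 to COX8 and ATP5F, ATP5M and ATP5P families. The symbols gave 83 of 60107 listed genes. Complex I had 36 of them, complex II 4, complex III 10, complex IV 15 (counting NDUFA4, a subunit of cytochrome c oxidase in spite of its name) and complex V 18. Pseudogenes were annotated for 48 of the 83, and 34 are overlapped by a gene on the opposite strand. Tags without a unique position were held in a summary entry and not in the gene counts, so genes with close copies may have lost tags. Whether the counting used strand, which bears on the overlapped genes, is not given in the sources used here.

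The study asked which cytoplasmic mRNAs depend on the methylation of caps that are added in the cytoplasm. ΔN-RNMT, an inactive form of the cap methyltransferase RNMT that is kept in the cytoplasm, was placed under control of the tetracycline operator in 1 clonal line of U2OS-TR cells, chosen for its strong induced expression. Libraries of that line were made without induction (Control 1 to 5) or after 24 h with 1 μg/ml doxycycline (Induced 1 to 5), and libraries of the parental U2OS-TR cells were made without (No Dox 1 to 3) or with doxycycline (With Dox 1 to 3). Both lines carry the repressor, and the protocol in the labels lists doxycycline for every library while the methods give it for the induced and treated cells. The lines were sequenced at different sites, on different instruments and with different read lengths, so line, site and sequencing cannot be told apart. The study's text calls the libraries of the transgene line biological replicates and those of the parental line triplicate cultures, and the labels add nothing on how they were grown.

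Gene counts were 12527183 to 23251834 per library in the transgene line and 1473286 to 3214808 in the parental line. Levels are CPM, gene counts relative to library totals scaled by TMM factors, which were computed separately for the lines. RNMT, which the transgene also encodes in part, was at 55.6 to 112 CPM in the Control and 266 to 458 CPM in the Induced libraries, and the groups did not overlap. The mesenchymal and osteoblast markers did not all fit the labelled origin. VIM, SPARC, COL1A1 and RUNX2 were detected, and ALPL was at most at 1.21 CPM. BGLAP was at 0 in every library, and COL1A2 and IBSP were at or near 0. The sum of these 8 markers was 306 to 642 CPM in the Control, 493 to 885 CPM in the Induced, 835 to 992 CPM in the No Dox and 479 to 1322 CPM in the With Dox libraries. Markers of other cell types (7 genes) summed to at most 17.5 CPM in any library. The highest of them was EPCAM, an epithelial marker, with means of 7.86 CPM in the Control and 12.1 CPM in the Induced libraries. RUNX2 had means of 7.70 and 17.3 CPM in the same groups. Control 5 and Induced 2 stood apart from their groups in many of the genes below, although their RNMT levels of 112 and 360.5 CPM lay on the side of their own labels.

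A stretch around the transcription start is shown for 9 subunit genes, as examples of genes that are described in full below, of genes that were lower and higher with the transgene induced, and of starts with and without a tract of pyrimidines. Messenger RNAs that begin with C and a run of pyrimidines are called TOP mRNAs and are the class the study followed, so the first bases of these genes bear on its question. The study took its TOP mRNAs from a published set recovered with LARP1, a protein that binds the cap and the tract. That set was not used here. Each window is 12 bases before and 18 bases from the RefSeq start on GRCh38.p14. Capitals mark the first base or, where at least 4 pyrimidines follow a first C, the whole tract.
ATP5MC1: tggagaaggtccAggacacgtgggtggggg
ATP5MC2: cccgctgctccgCCCCTCTCTgtcttctct
ATP5MJ: tgcgcgctcggtGacctttccgagttggct
NDUFA11: gcgcagcccgagAagtctcgcgatagccag
NDUFA2: ggtcagaccggaGcacttggcctgaagacc
NDUFB3: ggtgacaacctcCgtttccggttggctccg
NDUFC1: caatgggccccaCCTCCCgagaagagtgac
SDHD: ctaagtggttccGggttggtggatgacctt
COX7C: tttcccatctttCTTTTCagtccttgcgca
These lie at chr17:48892775-48892804 on the plus strand (ATP5MC1), chr12:53676066-53676095 on the minus strand (ATP5MC2), chr14:103921512-103921541 on the minus strand (ATP5MJ), chr19:5903773-5903802 on the minus strand (NDUFA11) and chr5:140647613-140647642 on the minus strand (NDUFA2). The others are at chr2:201071989-201072018 on the plus strand (NDUFB3), chr4:139302534-139302563 on the minus strand (NDUFC1), chr11:112086861-112086890 on the plus strand (SDHD) and chr5:86617929-86617958 on the plus strand (COX7C). ATP5MC2, NDUFC1 and COX7C are the windows with a pyrimidine tract, and the other 6 have none.

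With the transgene induced, more subunit genes were called lower than higher. Of the 83 genes, 79 passed the filter on low counts, and the quasi-likelihood test of edgeR, adjusted by Benjamini-Hochberg, called 23 lower, 10 higher and 46 neither at an adjusted p below 0.05. Over all 13038 genes tested, 19.8% were called lower and 20% higher, so the subunit genes had a somewhat larger share of lower calls and a smaller share of higher calls than the background. The falls were shallow, with log2 fold changes of -1.07 to -0.36, and 3 exceeded 2-fold. The rises ran from 0.54 to 2.96, and 7 were at least 2-fold. The median log2 fold change was -0.07 over the 79 genes and 0.04 over all genes tested. When libraries were scaled by total gene counts alone, the split turned to 7 lower and 18 higher, with medians of 0.15 for the subunit genes and 0.28 for all genes. Of all genes 10.7% were then lower and 30.8% higher, against 8.86 and 22.8% of the subunit genes, so the larger share of lower calls was lost under that scaling. These are levels in bulk RNA, in which fewer cells with an mRNA and less of it per cell cannot be told apart.

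**Figure D1:**
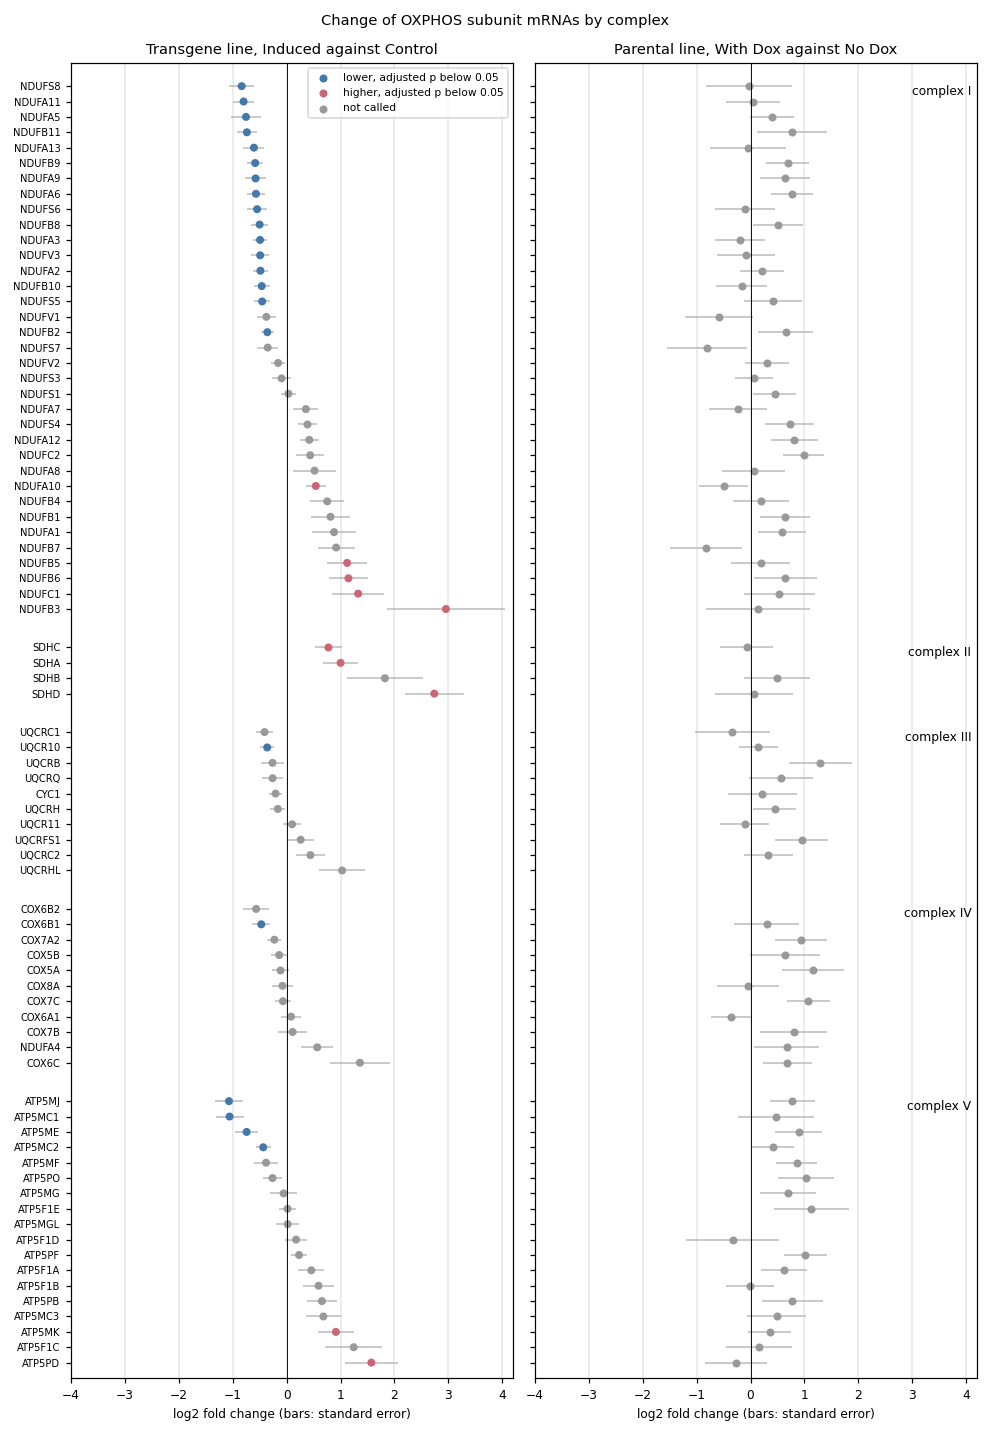
Log2 fold change (x axis) of Induced over Control (left) and of With Dox over No Dox (right) for the tested subunit genes but 1, by complex, with bars for the standard error of the fit and colours for the calls at an adjusted p below 0.05. On the left the lower calls lie mostly in complex I, and all 4 complex II genes lie to the right of 0, while no gene is called on the right.

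The calls differed in number between the complexes, which also differ in size. Complex I, with 36 of the 79 tested genes, held 17 of the 23 lower and 5 of the 10 higher calls. Complex II (4 tested) had 0 lower and 3 higher, complex III (10 tested) 1 and 0, complex IV (11 tested) 1 and 0. Complex V (18 tested) had 4 and 2. Over all genes tested 19.8% were called lower and 20% higher, and complexes II to IV are too small for their counts to be read against these shares. The median log2 fold changes were -0.36 for complex I, 1.41 for complex II, -0.18 for complex III, -0.08 for complex IV and 0.10 for complex V. Every complex contained genes that were not called, and complexes I and V contained calls in both directions. Whether the complexes differed from each other was not tested.

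The groups of libraries did not overlap for 7 of the tested subunit genes, all of them lower in the Induced libraries. Over all genes tested 4.22% were lower without overlap and 3.08% were higher without overlap. The 7 were NDUFA2, NDUFA3, NDUFB2, NDUFB9, NDUFB10, UQCR10 and ATP5MC2. None of the 10 genes called higher was without overlap. In all 10 of them Control 5 was the highest Control library and Induced 2 the lowest Induced library, and among the 23 genes called lower Control 5 was the lowest Control library in 20 and Induced 2 the highest Induced library in 20. The part of these libraries in the results was measured by leaving them out, and the values are given beside the genes. Both libraries lay toward the other group, so larger changes without them follow from which libraries were left out and do not bear out a change.

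Complex I takes electrons from NADH through a flavin and a chain of iron-sulfur clusters to ubiquinone, and 7 of the nuclear genes encode the core subunits that hold these sites. NDUFS8, which carries iron-sulfur clusters, was at 83.7, 90.3, 113, 70.9 and 44.6 CPM in the Control and 45.1, 58.5, 40.2, 42.1 and 39.8 CPM in the Induced libraries. Its Control libraries were higher apart from Control 5, and its log2 fold change was -0.83 (SE 0.23, edgeR adjusted p = 0.0202). The NDUFS8 call was lost without Control 2, Induced 1, Induced 3 or Induced 4, with adjusted p between 0.0501 and 0.0522. NDUFS1, the largest core subunit, at 0.03 and NDUFV1, which binds the flavin, at -0.38 on the log2 scale were not called.

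The accessory subunits surround the core, and 15 of 29 fell while 5 rose. NDUFA11, which sits in the membrane arm, was at 304, 318, 387, 259 and 209 CPM in the Control and 156, 221, 152, 148 and 171 CPM in the Induced libraries. Induced 2 lay just above Control 5 and the remaining libraries were apart. Its log2 fold change was -0.80 (SE 0.19, edgeR adjusted p = 0.0175). NDUFA5 at -0.75, NDUFB11 at -0.74, NDUFA13 at -0.61, NDUFA9 at -0.58, NDUFA6 at -0.57, NDUFS6 at -0.55, NDUFB8 at -0.50, NDUFV3 at -0.49 and NDUFS5 at -0.45 on the log2 scale were also called lower.

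For 5 accessory genes the groups did not overlap. NDUFA2, a small subunit of the arm in the matrix, was at 199, 220.3, 246, 210.3 and 206 CPM in the Control and 159.9, 166, 175, 133 and 139 CPM in the Induced libraries, a log2 fold change of -0.49 (SE 0.14, edgeR adjusted p = 0.0213). NDUFB2, of the membrane arm, was at 151, 146, 144, 145 and 148 CPM against 103, 131, 113, 104 and 121 CPM. The 5 Control values of NDUFB2 lay within 144 to 151 CPM, and the shift of -0.36 was larger than that spread (SE 0.12, edgeR adjusted p = 0.0399). NDUFB9, which belongs to the LYR protein family, was at 1063, 1105, 998, 911 and 821 CPM against 559.9, 799.5, 616, 593 and 699 CPM. Here Induced 2 again came closest to Control 5, and the log2 fold change was -0.58 (SE 0.15, edgeR adjusted p = 0.0187). NDUFA3 had means of 39.7 ± 3.53 and 28.2 ± 2.01 CPM (SD, n = 5 each) with a log2 fold change of -0.49, and NDUFB10 had 154 ± 29.0 and 112 ± 9.62 CPM with -0.46. Each of these calls was lost when certain libraries were left out. NDUFA3 was lost without Induced 4 (adjusted p = 0.0511), NDUFA2 without Control 2, Induced 1 or Induced 4 (0.0516 to 0.0571), and NDUFB9 without Control 2, Induced 1 or Induced 4 (0.0509 to 0.0526). NDUFB2 was lost without any 1 of Control 1, 2 and 4 and Induced 1, 3 and 4 (0.0713 to 0.0997), and NDUFB10 without any 1 of these or Induced 5 (0.0541 to 0.079).

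The complex I genes called higher had a different pattern. NDUFB3 (chr2:201071433-201085750), an accessory subunit of the membrane arm, was at 3.71, 2.63, 0.722, 4.84 and 59.3 CPM in the Control and at 161, 6.73, 163, 109 and 116 CPM in the Induced libraries. In 4 Control libraries it was under 5 CPM, whereas Control 5 was at 59.3 CPM, and Induced 2 at 6.73 CPM was close to those 4. Its log2 fold change was 2.96 (SE 1.10, edgeR adjusted p = 0.0497), the largest rise among the subunit genes, and the call was lost without any 1 library other than Control 5 or Induced 2 (adjusted p 0.0746 to 0.1). NDUFC1, also of the membrane arm, was at 31.4, 30.8, 18.3, 41.0 and 126 CPM against 161, 50.3, 155, 124 and 131 CPM. Control 5 lay among the Induced libraries and Induced 2 was nearest to the Control ones, with a log2 fold change of 1.33 (SE 0.49, edgeR adjusted p = 0.0481) that was likewise lost without any 1 of the other 8 libraries (adjusted p 0.0823 to 0.105). NDUFB6 rose by 1.15, NDUFB5 by 1.12 and NDUFA10 by 0.54 on the log2 scale. NDUFB6 was at most at 20.8 CPM in Control 1 to 4 and 42.5 CPM in Control 5, against 21.4 CPM in Induced 2 and 42.7 to 64.1 CPM in the other Induced libraries, and it too was lost without any 1 of the other 8 libraries (adjusted p 0.0589 to 0.0752). NDUFB7 at 0.92 fell just short of a call (edgeR adjusted p = 0.0514).

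**Figure D2:**
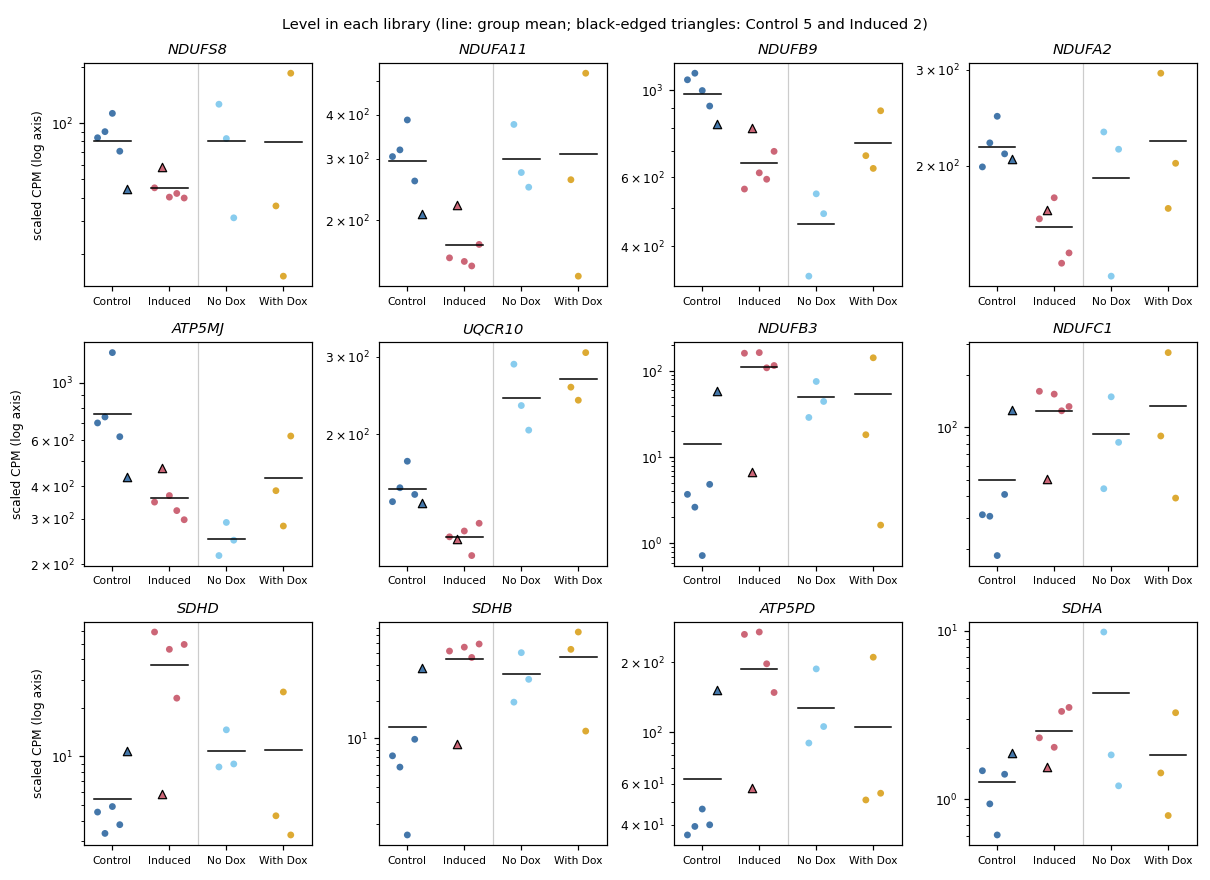
CPM on a log axis in each library for subunit genes of complexes I, II, III and V, with 1 point per library, the groups side by side and Control 5 and Induced 2 marked. For NDUFB3 and SDHD, Control 5 lies above the other Control libraries and Induced 2 below the other Induced libraries.

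Complex II oxidizes succinate and links the tricarboxylic acid cycle to ubiquinone, and it is the one complex with no subunit from mitochondrial DNA. SDHD (chr11:112086824-112120016), a membrane anchor, was at 4.52, 3.33, 4.89, 3.77 and 10.8 CPM in the Control and at 59.1, 5.83, 46.2, 23.0 and 49.5 CPM in the Induced libraries. Induced 2, at 5.83 CPM, was below Control 5, and the other 4 Induced libraries were above every Control library. The mean went from 5.46 ± 3.05 to 36.7 ± 21.8 CPM (SD, n = 5 each), and SDHD rose by 2.74 on the log2 scale (SE 0.55, edgeR adjusted p = 0.0175). Leaving out any 1 library kept the SDHD call. SDHC, the other anchor, was at 8.43, 10.00, 8.50, 7.40 and 16.4 CPM against 20.3, 10.9, 18.9, 17.9 and 19.2 CPM. Control 5 lay above Induced 2, and SDHC rose by 0.78 (SE 0.25, edgeR adjusted p = 0.03). SDHA, the flavoprotein, had 0.611 to 1.87 CPM in the Control and 1.55 to 3.50 CPM in the Induced libraries, which stands for 11 to 43 and 31 to 72 counts, and rose by 1.00 (SE 0.33, edgeR adjusted p = 0.0325). The SDHC call was lost without any 1 library other than Control 5 and Induced 2 (adjusted p 0.0585 to 0.0715), as was that of SDHA (0.0541 to 0.0813).

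SDHB, the iron-sulfur subunit, was the member of complex II that was not called. It was at 7.16, 5.79, 1.61, 9.78 and 37.6 CPM in the Control and at 51.5, 8.89, 55.4, 45.7 and 58.8 CPM in the Induced libraries. Control 5 and Induced 2 again lay on the side of the other group, and the log2 fold change was 1.82 (SE 0.71, edgeR adjusted p = 0.0574). Without Control 5 it was 2.83 (adjusted p = 0.00114) and without Induced 2 it was 2.09 (adjusted p = 0.0251). Larger values without libraries that lay toward the other group do not bear out a rise. Pseudogenes are annotated for all 4 genes of complex II, 4 for SDHA, 1 for SDHB, 4 for SDHC and 6 for SDHD.

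Complex III moves electrons from ubiquinol to cytochrome c. Of its 10 tested genes, 1 fell and none rose. UQCR10, a small membrane subunit, was at 140.5, 151, 174, 146 and 139 CPM in the Control and 117, 115, 120.5, 106 and 125 CPM in the Induced libraries. All Induced libraries were below all Control libraries, and the log2 fold change was -0.36 (SE 0.13, edgeR adjusted p = 0.0402), a call lost without any 1 of Control 1 to 4 and Induced 1, 3 and 4 (adjusted p 0.0553 to 0.0954). The redox subunits were not called: CYC1, cytochrome c1 itself, was at 294 to 334 CPM against 249 to 305 CPM (log2 fold change -0.21), and UQCRFS1, the Rieske iron-sulfur protein, at 35.0 to 76.1 CPM against 39.4 to 68.9 CPM (0.26). UQCRQ, the complex III gene with the highest mean tag level, was at 1061 CPM in Control 3 and 1673 to 1900.4 CPM in the other Control libraries, against 1071 to 1719 CPM in the Induced libraries, with a log2 fold change of -0.26.

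Complex IV reduces oxygen, and its nuclear subunits surround a catalytic core made from mitochondrial DNA. Of 15 genes 11 were tested and 1 was called. COX6B1, which faces the intermembrane space, was at 323, 315, 238, 302 and 272 CPM in the Control and 177, 284, 189, 184 and 213 CPM in the Induced libraries. Induced 2 was the one Induced library within the Control range, and the log2 fold change was -0.47 (SE 0.17, edgeR adjusted p = 0.0437), lost without any 1 of Control 1, 2 and 4 and Induced 1, 3, 4 and 5 (adjusted p 0.0654 to 0.106). COX8A, the smallest subunit, was at 476 to 924 CPM against 619.9 to 962 CPM with a log2 fold change of -0.08. COX6C was at 136, 123, 101, 209.7 and 779 CPM against 970.2, 375, 995, 676 and 449.7 CPM. Only Control 5 reached into the Induced range, and the log2 fold change of 1.36 was not called (SE 0.55, edgeR adjusted p = 0.0667). The same libraries stood out for NDUFA4, whose log2 fold change was 0.57 (edgeR adjusted p = 0.138) and, without Control 5, 0.91 (adjusted p = 0.00338). The larger value comes from leaving out a library that lay toward the other group and does not bear out a rise.

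The 4 untested genes, COX6A2, COX7A1, COX7B2 and COX8C, are forms restricted to muscle, testis or other tissues. COX6A2 had 0 counts in all libraries together, which at 202372423 gene counts allows up to 0.0148 CPM, counting error alone considered. COX7A1 had 2 counts, COX7B2 1 and COX8C 3.

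Complex V consists of the catalytic F1 head, a peripheral stalk that holds it in place and a membrane part with the rotating c ring. No F1 head gene was called, with log2 fold changes of 0.02 to 1.24 over the 5 genes, ATP5F1A (the alpha subunit) at 0.46 and ATP5F1B (the catalytic beta subunit) at 0.59. Without Control 5 both passed the threshold, with 0.61 (edgeR adjusted p = 0.0321) and 0.86 (0.00858), and ATP5F1A also did without Induced 2 (0.59, 0.0434). Those libraries lay toward the other group, so these values do not bear out a rise. In the peripheral stalk ATP5PD, the d subunit, was at 36.1, 39.3, 46.7, 39.9 and 153 CPM in the Control and at 263, 57.8, 269.8, 197 and 148 CPM in the Induced libraries. Control 5 lay above Induced 2 and Induced 5, and the log2 fold change of 1.57 passed the test (SE 0.49, edgeR adjusted p = 0.0286) but was lost without any 1 of Control 1 to 4 and Induced 1, 3 and 4 (adjusted p 0.0575 to 0.0691).

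The membrane part of complex V had calls both ways. ATP5MJ (chr14:103912288-103928269), a small proteolipid of the synthase, was at 699.9, 738, 1304, 619.6 and 434 CPM in the Control and at 347, 471, 368, 322 and 297 CPM in the Induced libraries. Control 3 was the highest, Induced 2 exceeded Control 5 alone, and the fall of 1.07 on the log2 scale was the largest among the subunit genes (SE 0.27, edgeR adjusted p = 0.0177). ATP5ME, the e subunit, which takes part in dimers of the synthase, was at 511, 549, 622, 490.0 and 427 CPM against 334, 431, 331, 274 and 182 CPM, with a log2 fold change of -0.74 (SE 0.21, edgeR adjusted p = 0.0232) that was lost without Control 2 or Induced 1, 3 or 4 (adjusted p 0.0513 to 0.059). Its groups overlapped only through Induced 2 and Control 5. ATP5MK rose by 0.91 (SE 0.33, edgeR adjusted p = 0.0478), with Control 5 at 253 CPM and the other Control libraries at 73.5 to 118 CPM. That call was lost without any 1 library other than Control 5 and Induced 2 (adjusted p 0.0774 to 0.109). ATP5MG, the g subunit and the highest of the subunit genes by mean tag count, was at 1045 to 2839.8 CPM against 1536 to 2419.7 CPM, and its log2 fold change of -0.06 was not called.

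The c ring shows unequal change among genes with 1 product, since ATP5MC1, ATP5MC2 and ATP5MC3 encode the same mature c subunit and differ in the import sequence that is cut off. ATP5MC1 (chr17:48892765-48895871) was at 1523, 1671, 2416, 1310.1 and 901 CPM in the Control and at 613, 1039, 638, 615 and 848 CPM in the Induced libraries. Induced 2 alone exceeded Control 5, and ATP5MC1 fell by 1.06 on the log2 scale (SE 0.26, edgeR adjusted p = 0.0177). ATP5MC2 (chr12:53632726-53677408), which begins with the pyrimidine tract shown above, was at 682, 684, 583, 611 and 524 CPM against 426, 523, 416, 427 and 489.8 CPM. All Induced libraries were below all Control libraries, if barely for Induced 2 against Control 5, and the log2 fold change was -0.43 (SE 0.14, edgeR adjusted p = 0.0323), lost without any 1 of Control 1, 2 and 4 and Induced 1, 3 and 4 (adjusted p 0.063 to 0.085). ATP5MC3 (chr2:175176258-175181710) was at 831, 677, 426, 959 and 1772 CPM against 1557, 1135, 1703, 1253 and 1835 CPM, with a log2 fold change of 0.68 that was not called (SE 0.32, edgeR adjusted p = 0.103). Without Control 5 it was 1.03 (adjusted p = 0.00331). Control 5 lay toward the Induced libraries, so that value does not bear out a rise.

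Summed over the 3 genes, tags for the c subunit were at 3036, 3032, 3426, 2880.3 and 3197 CPM in the Control and 2596, 2697, 2757, 2295 and 3172 CPM in the Induced libraries. The means were 3114 ± 207 and 2703 ± 316 CPM (SD, n = 5 each), and the groups overlapped through Induced 5. The makeup of the sum differed more. ATP5MC1 made up 50.2, 55.1, 70.5, 45.5 and 28.2% of it in the Control and 23.6, 38.5, 23.1, 26.8 and 26.7% in the Induced libraries, and ATP5MC3 12.4 to 55.4% against 42.1 to 61.8%. In the parental cells ATP5MC2 gave the most, with 44.2 to 69.5% of the sum. ATP5MC1 has 8 annotated pseudogenes and ATP5MC2 5, while ATP5MC3 has 0. Tags without a unique position were not in the gene counts, and how many each gene lost in this way bears on these percentages.

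**Figure D3:**
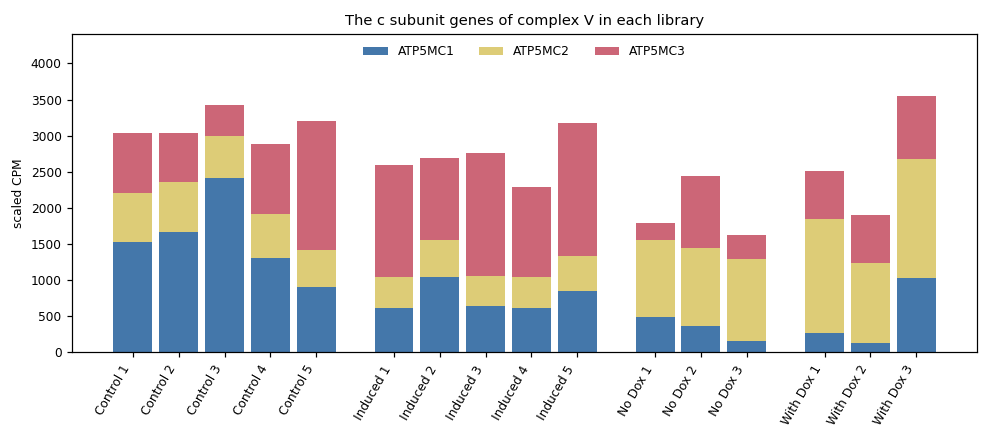
CPM of the 3 genes for the c subunit of ATP synthase, stacked for each library, with libraries on the x axis in their groups and CPM from 0 on the y axis. Stack heights are 2880.3 to 3426 CPM in the Control and 2295 to 3172 CPM in the Induced libraries, which overlap through Induced 5. The ATP5MC1 portion is smaller in the Induced libraries, except that Induced 2 exceeds Control 5.

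As a share of all gene counts, without TMM scaling, the subunit genes together made up 1.87 to 2.70% in the Control and 2.26 to 2.55% in the Induced libraries. These ranges overlap, with means of 2.28 ± 0.30 and 2.41 ± 0.11% (SD, n = 5 each). Complex I took 0.694% on average in the Control and 0.672% in the Induced libraries, complex III 0.398 and 0.400%, complex IV 0.285 and 0.361%, and complex V 0.896 and 0.965%. Complex II was at 0.00132 to 0.00661% in the Control and 0.00278 to 0.0149% in the Induced libraries. Its highest Control library was Control 5 and its lowest Induced library Induced 2.

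**Figure D4:**
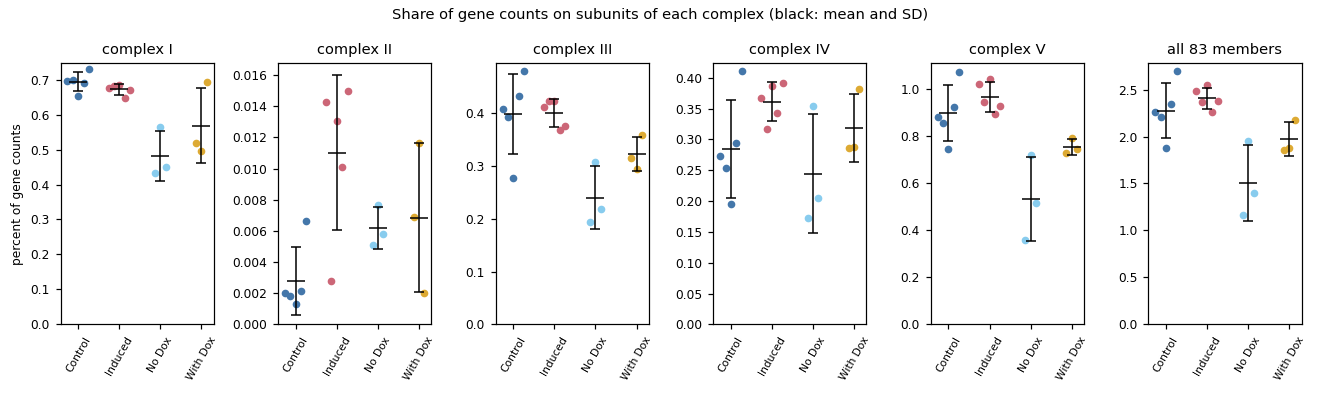
Percent of all gene counts taken by the subunit genes of each complex in each library, on axes that start at 0 and differ in scale, with 1 point per library and black bars for the mean and SD of each group. The Control and Induced ranges overlap for every complex, and the complex II share lies far below the others.

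Because Control 5 and Induced 2 stood apart in so many of these genes, the test was repeated without both, a choice made after seeing the data. It called 27 of the 79 subunit genes lower and 29 higher, which is 34.2 and 36.7% of them against 30.5 and 33.8% of all genes, and kept all 23 lower and all 10 higher calls. NDUFB3 was then at 5.50, SDHD at 3.42, SDHB at 3.10, ATP5PD at 2.43 and NDUFC1 at 2.22, while ATP5MC1 was at -1.35 and ATP5MJ at -1.33 on the log2 scale. The libraries left out lay against most of these calls. Kept calls and larger fold changes thus follow from the choice and are no support for the calls. In contrast, leaving out a single other library lowered the counts. The lower calls came to 10, 6, 17 and 11 without Control 1, 2, 3 and 4 and to 6, 9, 5 and 16 without Induced 1, 3, 4 and 5, and the higher calls to 1 or 2 in each case. In these 8 fits 6.33 to 21.5% of the subunit genes were lower and 1.27 to 2.53% higher, and of all genes 7.14 to 15.4% were lower and 6.99 to 13.5% higher. Without Control 5 there were 26 lower and 26 higher calls (27.4 and 31.2% of all genes), and without Induced 2 there were 26 and 18 (23.8 and 25%). The calls over all genes thus moved in the same direction as those of the subunit genes. With 1 surrogate variable in the fit, 0 subunit genes and 1 of all genes were called, and 27 of the 79 had an unadjusted p below 0.05.

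**Figure D5:**
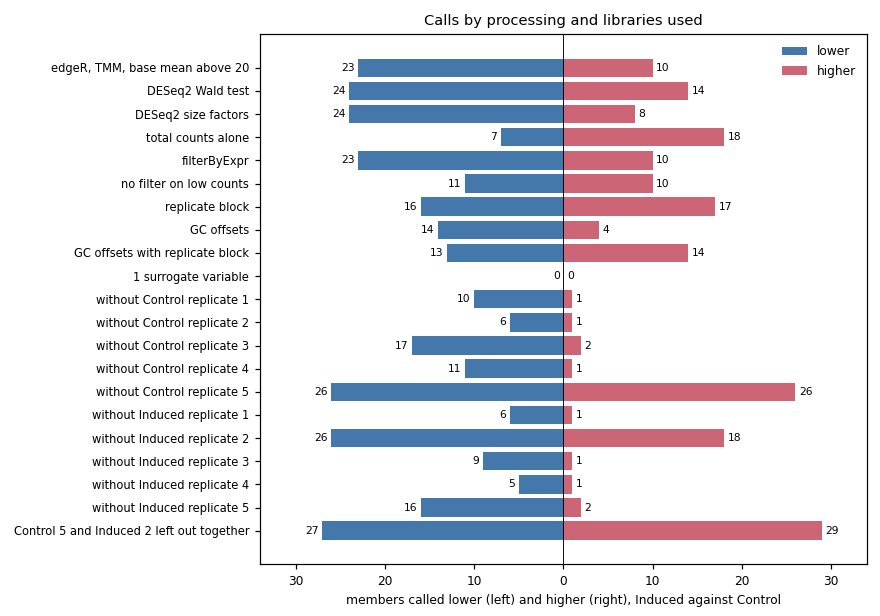
Number of subunit genes called lower and higher in Induced against Control (x axis, with lower calls to the left of 0) under each setting (y axis). Leaving out Control 5 gives 26 and 26 calls and leaving out Induced 4 gives 5 and 1.

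SDHD, ATP5MJ and ATP5MC1 kept their calls under all alternatives but the surrogate variable, where the adjusted p was 0.0673, 0.0781 and 0.0703. NDUFA11 lost its call there (0.0692), with offsets for GC content (0.0554) and with those offsets and the replicate number as a block (0.0799).

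The GC content of a transcript moved with these results. Over the 79 subunit genes, the Spearman correlation of the log2 fold change with transcript GC content was -0.48, and over the 12922 genes with a known GC content it was -0.43. For the last 300 nt, where the tags lie, it was -0.56 over the subunit genes and -0.51 over all. These are descriptions over genes of the same libraries. The median GC content of the last 300 nt was 49.0% for the genes called lower, 40.3% for those not called and 36.5% for those called higher. With offsets for GC content the counts were 14 lower and 4 higher, and 11 of the lower and 3 of the higher calls were shared with the fit without offsets. The 14 and 4 were 17.7 and 5.06% of the subunit genes, against 14.8 and 11.9% of all genes.

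Genes that build or partner the complexes were read from lists of their own. Of 51 tested assembly factors 13 fell and 4 rose, with a median log2 fold change of -0.03. Over all genes tested, 19.8% were called lower and 20% higher. The factors that fell included NDUFAF8 (complex I) at -1.19, UQCC2 and TTC19 (complex III) at -0.82 and -1.07, SDHAF2, which attaches the flavin of complex II, at -0.88, and COA3 and TACO1 (complex IV) at -1.07 and -1.01. The 4 that rose were CMC1 at 1.70, SDHAF3 at 1.48, PET117 at 0.98 and COX11, which delivers copper to complex IV, at 0.64. CMC1 had low levels, with 0.863 to 6.33 CPM in the Control and 1.69 to 9.58 CPM in the Induced libraries, and its groups overlapped. Of the 13 subunit genes of mitochondrial DNA, which are transcribed inside the organelle and whose RNA can be shared with nuclear copies, 8 fell and none rose, with a median of -0.71. MT-ATP6 was at -1.01, MT-ND4 at -0.99 and MT-ND1 at -0.90. The groups overlapped for all 13. Their sum varied widely among the Control libraries, from 6164 CPM in Control 5 to 12114 CPM in Control 1, against 4131 to 7053 CPM in the Induced libraries. The unequal shares of the cytoplasmic and mitochondrial lists were not compared by a test.

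Among 14 genes of the tricarboxylic acid cycle, 4 fell (IDH3G at -0.75, DLST at -0.65, IDH3B at -0.60 and CS, citrate synthase, at -0.44) and 4 rose (SUCLG2 at 2.01, FH at 1.44, OGDH at 1.14 and IDH3A at 0.50). Of 11 tested regulators of respiratory genes, 4 rose and 1 fell. For both lists the shares over all genes tested were 19.8% lower and 20% higher. GABPA, the DNA-binding part of an ETS factor that acts on many respiratory promoters, was at 2.64, TFB2M, a mitochondrial transcription factor, at 2.58, GABPB1, the partner of GABPA, at 0.88 and TFAM, which packages mitochondrial DNA, at 0.61. POLRMT, the mitochondrial RNA polymerase, was at -0.52. Levels were low for GABPA, with 1.06 to 3.38 CPM in the Control and 1.98 to 15.4 CPM in the Induced libraries. TFB2M had 0.445 to 5.03 CPM against 1.18 to 14.8 CPM, and the groups overlapped for both genes. Fits with libraries left out are not given for these lists. GABPA and ATP5PF, a stalk subunit of complex V, overlap on opposite strands. Among subunits whose symbols the rule did not take, COX4I1 fell with a log2 fold change of -0.81 and COX7A2L rose with 1.45, and 4 more were not called.

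The promoters of 66 of the 83 genes were in the RefSeq table, as windows of 250 bases before and 50 bases from the start, and 17 were missing from it. A first C followed by at least 4 pyrimidines was found in 7 of the 66 (10.6%), against 4.04% of 27305 promoters of all genes. The 7 were ATP5F1E, ATP5MC2, ATP5MG, ATP5PO, COX7C, NDUFC1 and UQCRH. They included 1 of the 20 genes called lower with a promoter (ATP5MC2), 1 of the 8 called higher (NDUFC1) and 5 of the 35 not called. The median log2 fold change was -0.07 for these 7 and -0.10 for the 56 tested genes without the tract. RefSeq gives 1 start per gene here, and the starts used in U2OS cells were not measured in these libraries. This rule on letters also differs from the LARP1-based set of the study, so the counts cannot be set against those of the study.

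Short motifs of known respiratory regulators were searched in the same windows on both strands. The NRF1 core GCATGCGC was in 13 (19.7%, against 3.27% of all promoters), the ETS letters CCGGAAG in 19 (28.8%, against 10.7%) and the YY1 core AAGATGGCG in 8 (12.1%, against 1.85%). The ETS and YY1 letters can overlap at AAG. The ETS letters were in 3 of 20 genes called lower, 3 of 8 called higher and 13 of 35 not called, and the median log2 fold change was 0.03 with and -0.24 without them. For the NRF1 core these were 4 of 20, 1 of 8 and 8 of 35, with medians of 0.08 and -0.10. For the YY1 core they were 2 of 20, 0 of 8 and 6 of 35, with medians of -0.06 and -0.09. The motifs were not compared by a test. A match is a run of letters and not a bound site.

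The parental cells, which have no transgene, show the subunit genes with doxycycline alone. Of the 83 genes 75 were tested, and edgeR (quasi-likelihood test, Benjamini-Hochberg) called 0 of them (0% of the 9124 genes tested). DESeq2 also called 0 subunit genes. At an unadjusted p below 0.05, 5 subunit genes were higher (0.932% of all genes tested) and 0 were lower (1.99%). Of the 75 genes 56 had a positive log2 fold change, with a median of 0.45, while the median over all genes tested was -0.01. The median over the subunit genes was 0.30 to 0.86 when each library was left out, and the number with an unadjusted p below 0.05 was 0 to 22. The 22 were found without No Dox 2, where they made up 29.3% of the subunit genes tested and 4.54% of all genes passed, and the 0 without With Dox 1, where 0.736% of all genes passed. Nuclear RNA moved with the groups. MALAT1, an RNA kept in the nucleus, had a log2 fold change of -2.57 without overlap of the groups, which edgeR did not call after adjustment over all genes (adjusted p = 0.997). The nuclear RNA list of 4 genes summed to 1663, 471 and 1149 CPM in No Dox 1, 2 and 3 and to 453, 397 and 270 CPM in With Dox 1, 2 and 3, and 1 of its genes was at 0 in every library. The 13 mitochondrial DNA subunit genes summed to 13590 CPM in No Dox 2 and 48032 and 49690 CPM in the other No Dox libraries, against 34634 to 52249 CPM with doxycycline. The part of these differences in the subunit genes was not tested.

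The With Dox libraries were all above the No Dox libraries for 11 of the 75 genes (4.87% of all genes tested were higher without overlap) and all below for 1, COX6A1 (4.66% were lower without overlap). COX7C, a small subunit of complex IV with the pyrimidine tract shown above, was at 194, 313 and 298 CPM in No Dox and 656, 530.0 and 512 CPM in With Dox libraries. The groups did not overlap, and the log2 fold change was 1.08 (SE 0.39), with an unadjusted edgeR p of 0.0189 that became 0.997 after adjustment in a fit across all genes. NDUFC2, a membrane arm subunit of complex I, was at 115, 198 and 179 CPM against 326, 347 and 306 CPM, and ATP5PF at 87.3, 168 and 130.3 CPM against 278, 303 and 198 CPM. Neither overlapped, and their log2 fold changes were 0.99 and 1.02 with adjusted p of 0.997 each in the same fit. UQCRB and ATP5MF, with 1.30 and 0.86, were the other genes with an unadjusted p below 0.05.

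Some of the genes with large changes in the transgene line varied widely among the parental libraries. ATP5MC1 was at 496, 366 and 159 CPM without and 265, 126 and 1027 CPM with doxycycline, NDUFB3 at 28.9, 75.6 and 44.3 CPM against 18.2, 142 and 1.63 CPM, and SDHD at 8.61, 14.6 and 8.98 CPM against 4.29, 25.1 and 3.26 CPM. With Dox 3 was the highest of the treated libraries for ATP5MC1 and the lowest for NDUFB3 and SDHD, and for each of these genes the treated libraries spanned a wider range than the difference between the group means. ATP5MJ was at 216, 290 and 248 CPM without and 384, 281 and 623 CPM with doxycycline. Its log2 fold change had an SE of 0.42, against 0.70 for ATP5MC1, 0.97 for NDUFB3 and 0.73 for SDHD.

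As a share of gene counts the subunit genes were at 1.17 to 1.95% without and 1.85 to 2.18% with doxycycline (n = 3 each). The ranges overlapped, and the share was not tested. Single genes had wide errors, with an SE of the log2 fold change of 0.39 for COX7C and 0.97 for NDUFB3.

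Whether the response in the transgene line differed from that in the parental line was tested as a difference of log2 fold changes, in a joint fit of both lines. Of 76 genes tested, 5 were called lower in the transgene line (2.2% of the 12265 genes tested) and 0 higher (0.775%), and the median difference was -0.64 for the subunit genes and -0.09 for all genes (0.01 and 0.49 with scaling by total counts). The 5 were NDUFA6 and NDUFB9 of complex I, COX7C of complex IV, and ATP5MJ and ATP5ME of complex V. For each the parental value was positive, at 0.77, 0.69, 1.08, 0.77 and 0.89, so that these differences draw on both lines. The differences were -1.57 for NDUFA6 (SE 0.37), -1.51 for NDUFB9 (SE 0.35) and -1.37 for COX7C (SE 0.31), each with an edgeR adjusted p of 0.0408. ATP5MJ had -2.09 (SE 0.50, edgeR adjusted p = 0.0424) and ATP5ME -1.88 (SE 0.46, edgeR adjusted p = 0.0433). COX7C was not called within the transgene line, with a log2 fold change of -0.07. For each of the 5 genes the joint fit put the difference further below 0 than the separate fits of the lines give. The separate values (transgene, then parental line) were -0.57 and 0.77 for NDUFA6, -0.07 and 1.08 for COX7C, and -1.07 and 0.77 for ATP5MJ. How far this shift toward lower values bears on the calls was not tested.

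These 5 calls rested on the choice of libraries and scaling. No subunit gene was called when libraries were scaled by total counts, when the filter on low counts was changed or when any 1 of Control 1 to 4, Induced 1, 3, 4 and 5, No Dox 1 and With Dox 1 and 3 was left out, whereas 15 lower and 3 higher calls were made without Control 5, 14 and 2 without With Dox 2, 9 and 1 without Induced 2, 6 and 0 without No Dox 2 (1 of the 5 among them) and 5 and 0 without No Dox 3. The shares over all genes in those fits were 10.4% lower and 8.45% higher, 6.88 and 6.39%, 6.25 and 3.4%, 0.658 and 0.297%, and 3.06 and 2.5%, in that order. DESeq2 called 15 lower and 1 higher (7.35 and 4.79% of all genes). Among the largest differences upward were 2.66 for NDUFB3 and 2.43 for SDHD, and neither was called (edgeR adjusted p = 0.315 and 0.123). With edgeR on all libraries, the difference was called for 4 of the subunit genes called in the transgene line, the 5 above without COX7C. That fit used 1 dispersion per gene for both lines. Fitted separately, the lines had a biological coefficient of variation of 0.320 (transgene) and 0.444 (parental). The SE of the difference was below that of the parental change alone for COX7C (0.31 against 0.39), NDUFA6 (0.37 against 0.39) and NDUFB9 (0.35 against 0.40). It was above it for ATP5MJ (0.50 against 0.42) and ATP5ME (0.46 against 0.44). The parental spread may thus be understated in these calls.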

How the data were processed

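The authors deposited raw counts of 3′ end tags per Ensembl gene (QuantSeq REV, cytoplasmic polyA RNA), which their methods say were made with the Lexogen QuantSeq 2.2.3 REV pipeline for GRCh38. How tags were aligned, which annotation was used, and whether strand or duplicates were considered is not given in the sources used here. Each of the 16 tables lists 60107 genes, 92 spike-in entries at 0 and 5 summary entries, which hold 39.3 to 59.1% of all entries in the transgene line and 65.7 to 74.7% in the parental line and were left out. In all, 0 columns belonged to other samples. Names and coordinates came from GENCODE 44 (56104 genes matched, SCO2 not), promoters from RefSeq.

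Testing took genes of base mean above 20, in R 4.3.3 with edgeR 4.0.16 (TMM, quasi-likelihood test, Benjamini-Hochberg adjustment over all genes, calls below 0.05). Each line was fitted by itself, and both were fitted together for the difference in response. The SE is the size of the log2 fold change over the square root of the test statistic. Log2 CPM for the GC offsets and the correlations of libraries used a prior count of 2, and none was set in the edgeR fit, which used its default. The biological coefficient of variation was 0.320 and 0.444 in the transgene and parental line. The scripts were tested on simulated data. Alternatives were DESeq2 1.42.0, its size factors, total counts, no filter or filterByExpr, a block for the replicate number, GC offsets (lowess span 0.5), 1 surrogate variable (sva 3.50.0) and each library left out. Leaving out Control 5 and Induced 2 together was added after seeing the data. Python 3.11.15 was used for sequences and figures.

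In each complex the genes described in full were the one with the highest mean level, up to 3 called genes with the largest falls and rises, those without overlap, all of complex II, a few set subunits and, in the parental line, the 3 lowest p. Further genes were picked for mention with their values known. The members and gene lists were chosen with earlier results of these data known. The values of 1 subunit gene are not reported here, though it is in the counts. Duplicate libraries were looked for and none were found, the closest pair (Induced 1 and 3) having a chi-square of 4.26 per degree of freedom.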

Additional observations from a re-analysis of the deposited data

Results flagged for a closer look

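Of 82 groups of 5 libraries examined for the named genes and complex shares, 16 had 1 library whose gap to the nearest other, relative to the range, exceeded Dixon's 95% critical value. Chance gives this in about 1 of 20 groups, and the groups here share libraries. Control 5 was the library in 11 of them and Induced 2 in 3.

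Control 5 stood above the other Control libraries for NDUFB3 (59.3 CPM, others 0.722 to 4.84), NDUFC1 (126, others 18.3 to 41.0), NDUFB6 (42.5, others at most 20.8), SDHB (37.6, others 1.61 to 9.78), SDHD (10.8, others 3.33 to 4.89) and SDHC (16.4, others 7.40 to 10.00). It did so too for ATP5PD (153, others 36.1 to 46.7), ATP5MK (253, others 73.5 to 118), ATP5PF (176, others 138 to 147) and UQCRFS1 (76.1, others 35.0 to 46.0), and for the share of complex II, which was 0.00661% of gene counts against 0.00132 to 0.00212%. Induced 2 stood below the other Induced libraries for SDHB (8.89 CPM, others 45.7 to 58.8) and SDHC (10.9, others 17.9 to 20.3) and above them for NDUFS8 (58.5, others 39.8 to 45.1). Control 3 was low for UQCRQ (1061 CPM, others 1673 to 1900.4), and Induced 5 was high for COX8A (962 CPM, others 619.9 to 692).

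The edgeR test of the difference itself, with 1 dispersion per gene for both lines, called 5 genes, each lower in the transgene line. They were ATP5MJ (-2.09), ATP5ME (-1.88), NDUFA6 (-1.57), NDUFB9 (-1.51) and COX7C (-1.37 on the log2 scale). These values come from the joint fit and are lower than the separate fits of the lines give.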

How the results depend on the processing

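In Induced against Control, 23 subunit genes were called lower and 10 higher. The counts were 7 and 18 with total counts (median log2 fold change 0.15), and 11 and 10 without a filter (8.04 and 9.21% of all genes). With GC offsets they were 14 and 4 (14.8 and 11.9% of all genes), and with 1 surrogate variable 0 and 0. They were 27 and 29 without Control 5 and Induced 2, and 5 to 26 and 1 to 26 with each library left out. DESeq2, its size factors and filterByExpr kept both counts within 1.5 times. The cause of these changes was not tested. For the difference between the lines, 5 and 0 became 15 and 1 with DESeq2, and 0 lower with total counts, filterByExpr or no filter. Without Control 5 and Induced 2 they were 16 and 5 (13.6 and 11.7% of all genes), and with each library left out 0 to 15 and 0 to 3.

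The replicate number as a block gave 16 lower and 17 higher calls (20.3 and 21.5% of the subunit genes, against 17.3 and 22.5% of all genes). Together with GC offsets it gave 13 and 14 (16.5 and 17.7%, against 14.3 and 16.8% of all genes). Same-numbered libraries had deviations with a mean correlation of 0.026 (transgene line) and -0.0598 (parental line), so the numbers were not taken to pair them. The block gave 0 calls in the parental line.

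Of genes not called in the first place, log2 fold changes turned sign with total counts for COX8A (0.15), ATP5MG (0.15), CYC1 (0.030) and COX7C (0.17), with GC offsets for COX8A (0.21), CYC1 (0.20), UQCRFS1 (-0.0058) and ATP5PF (-0.14), and with GC offsets and the block for COX8A (0.25), CYC1 (0.20) and ATP5PF (-0.15). They also did so with 1 surrogate variable for UQCRFS1 (-0.11), with each library left out for ATP5MG (-0.24 to 0.057, positive without Control 5 or Induced 5), and without Control 5 and Induced 2 for COX8A (0.0074) and COX7C (0.0083).

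Of 38 named fold changes, 22 lost and 9 gained a call under at least 1 alternative. The parental libraries are shallower and fewer, and changes of the size called in the transgene line could be missed there. Pseudogenes and genes on the opposite strand limit how far tags can be given to 1 gene, and multi-mapped tags numbered 0.561 to 1.33 per gene count in the transgene line.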
